A study of Mus musculus with 6 samples.

Results

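The genes described here are the transferrin receptor Tfrc and 7 further genes of cellular iron handling, Slc11a2, Fth1, Ftl1, Aco1, Ireb2, Slc40a1 and Iscu, 8 genes in all. The arrays named 15964 genes by a probe set of their own, among them 7 of these 8. They were chosen by symbol, together with the AFFX-TransRecMur control probe sets for mouse Tfrc that each array type carries. The choice was made with earlier results of these arrays known, so the values are a description. These 7 each had a probe set above the background floor in both kinds of cells, and Ftl1 had none that was annotated to it alone. The choice covered 29 probe sets, namely 19 gene probe sets, 9 control probe sets and 1 with several symbols.

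Total RNA came from CD8+ T cells of female P14 mice, whose transgenic T cell receptor recognises a viral peptide, on the C57Bl/6 background. All cells came from whole spleen and lymph node suspensions given that peptide for 2 days and a cytokine for 7 more days. Cells grown in IL-15 are called central memory (CM) cells and were sorted for a high level of a surface marker, and cells grown in IL-2 are called effector/effector memory (E/EM) cells and were sorted for a low level of it. Both are in vitro models, neither group was left without peptide or cytokine, and the labels do not say how many mice were pooled. Each kind was hybridised to 1 array of each of 3 types with different gene probe sets, named SubA, SubB and SubC, 6 arrays in all. There were no replicates, so no p-value was computed. The labels leave unsaid whether 1 RNA preparation served the 3 arrays of a kind of cell.

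Cells take up iron bound to transferrin through the transferrin receptor, which carries it into endosomes. There it is reduced and moved to the cytosol by the metal transporter encoded by Slc11a2. Iron that is not used at once is stored in ferritin, built of the heavy chain Fth1 and the light chain Ftl1, or leaves through the exporter ferroportin, encoded by Slc40a1. The iron regulatory proteins encoded by Aco1 and Ireb2 bind iron-responsive elements in mRNAs when iron is scarce. This binding stabilises Tfrc mRNA and blocks the translation of ferritin mRNA. T cells raise the transferrin receptor, also known as CD71, when they are activated and divide.

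The promoters of the receptor and of the ferritin chains are shown because these genes take up and store the iron. Of the 8 genes, 5 had a promoter window in the RefSeq table of build GRCm38.p6, 7 windows in all. Each sequence is the 250 bases before a RefSeq start, read 5′ to 3′ on the strand of the gene, with the CCAAT motif, or ATTGG where it lies on the opposite strand, in capitals. The Tfrc window is chr16:32608646-32608895 on the plus strand. That of Fth1 is chr19:9982396-9982645 on the plus strand, before the second of the RefSeq starts of this gene, and that of Ftl1 is chr7:45459887-45460136 on the minus strand.
Tfrc: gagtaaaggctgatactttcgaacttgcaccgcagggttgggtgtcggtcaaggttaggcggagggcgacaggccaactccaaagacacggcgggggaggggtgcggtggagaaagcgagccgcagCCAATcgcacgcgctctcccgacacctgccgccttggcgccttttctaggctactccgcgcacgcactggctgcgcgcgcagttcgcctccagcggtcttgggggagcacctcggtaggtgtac
Fth1: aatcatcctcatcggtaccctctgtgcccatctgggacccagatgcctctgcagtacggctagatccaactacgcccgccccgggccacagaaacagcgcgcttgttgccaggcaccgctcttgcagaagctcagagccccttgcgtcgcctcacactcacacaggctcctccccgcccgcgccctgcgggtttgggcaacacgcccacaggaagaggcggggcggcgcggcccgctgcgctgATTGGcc
Ftl1: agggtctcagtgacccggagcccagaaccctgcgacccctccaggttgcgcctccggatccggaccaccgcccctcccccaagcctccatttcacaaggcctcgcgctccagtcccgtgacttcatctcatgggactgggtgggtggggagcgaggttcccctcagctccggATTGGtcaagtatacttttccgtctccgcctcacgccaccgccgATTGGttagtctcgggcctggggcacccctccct
The Tfrc and Fth1 windows each held 1 CCAAT match and the Ftl1 window held 2. The other 4 windows of these genes held none, among them the second window of Tfrc and the first window of Fth1. Of all 32851 promoter windows in the table, 33.8% held CCAAT in these 250 bases. GGGCGG, searched in the same way, was found in 5 of the 7 windows, those of Aco1, Ireb2 and Ftl1 and the second ones of Tfrc and Fth1, and in 32.7% of all windows. Both motifs were chosen after the sequences were seen, and the windows printed above are those of the 7 that held a CCAAT match. The letters CACGTG (7.15% of all windows), TTCNNNGAA (8.3%) and TGACNNNGC (12.4%) were searched on both strands of the full windows, which run 50 bases past the start. None of the 7 windows held any of these 3. CAGTGN, searched on the strand of the gene in the 50 bases after the start, was held by 7.08% of all windows and by none of these.

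The Tfrc transcript had a higher signal in CM than in E/EM cells on every probe set that measures it, 4 gene probe sets and 9 control readings. Ratios below are CM over E/EM intensity on the log2 scale, taken where both arrays exceeded the floor, a background level set from bacterial control probe sets and which was 31.28 for SubA, 88.12 for SubB and 194.34 for SubC. Intensities are in the deposited linear units, which cannot be compared between array types or probe sets. On SubA, probe set 103957_at read 1214.1 in CM and 642.2 in E/EM cells, a log2 ratio of 0.92. Probe set 103958_g_at, also on SubA, read 4340.2 against 2898.1, a log2 ratio of 0.58. The SubB probe set 162738_at read 9886.5 against 8076.9, a log2 ratio of 0.29. The SubC probe set 139035_at read 4442 against 2535.3, a log2 ratio of 0.81. The CM array was thus the higher one on all 3 array types, by between 1.22-fold and 1.89-fold. The mean log2 ratio of the gene was 0.65 ± 0.28 (SD, 4 probe sets), a 1.57-fold higher signal in CM cells. Of 10946 named genes with a ratio, 8.23% had one at least as high. Among 305 genes with 4 measured probe sets, all 4 ratios were above 0 in 56, or 18.4%. A total signal of sorted cells cannot tell more transcript per cell from more cells that carry it.

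**Figure D1:**
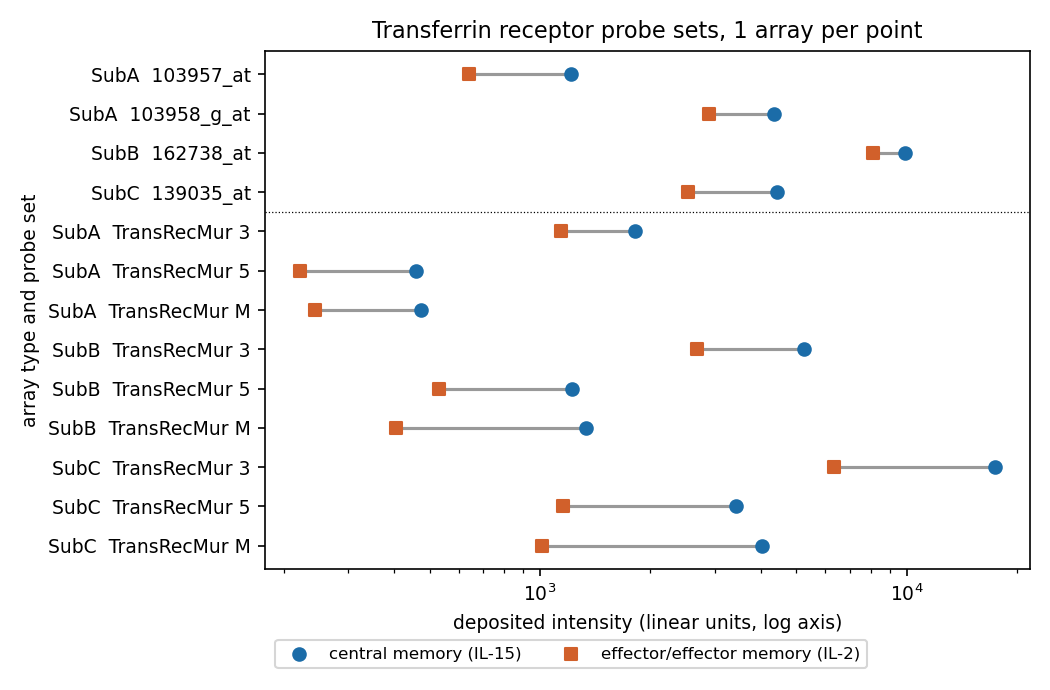
Intensity of each Tfrc probe set on its CM array (blue circles) and E/EM array (orange squares), on a log axis in deposited linear units, with 1 array per point and no error bars since there were no replicates. The 4 gene probe sets are above the dotted line and the 9 AFFX-TransRecMur readings (3′, 5′ and middle probe sets on each array type) under it; the CM point lies to the right in all 13.

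The AFFX-TransRecMur control probe sets lie toward the 3′ end, the 5′ end and the middle of the Tfrc transcript and are the same on all 3 array types, so they measured it 3 times over. The 3′ probe set read 1821.3 in CM against 1139.9 in E/EM cells on SubA, 5258.7 against 2685.7 on SubB, and 17405.6 against 6327.9 on SubC. The 5′ probe set read 460.1 against 221.8 on SubA, 1225.2 against 530.4 on SubB, and 3418.6 against 1152.3 on SubC. The middle probe set read 473.4 against 244.3 on SubA, 1332.1 against 405.7 on SubB, and 4033.1 against 1011.1 on SubC. The CM array was higher in all 9 pairs, by between 1.60-fold and 3.99-fold. The mean log2 ratio over array types was 1.04 ± 0.40 (SD, 3 array types) at the 3′ end, 1.28 ± 0.26 at the 5′ end and 1.56 ± 0.54 in the middle. Of the 9 ratios, 6 were at least 2-fold. Among other probe sets above the floor, the share at least 2-fold higher in CM cells was 2.31% (SubA), 3.46% (SubB) and 7.33% (SubC).

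Taken as 1 reading per array type, the 3 control probe sets had mean log2 ratios of 0.89 (SubA), 1.30 (SubB) and 1.67 (SubC), with a mean over array types of 1.29 ± 0.39 (SD, 3 array types), or 2.44-fold. Each of the 3 probe sets had its lowest ratio on SubA and its highest on SubC. Other shared controls also differed between array types. The median over 6 sense actin and Gapdh control probe sets was -0.08, -0.16 and 0.24 in the same order, and that over 9 hybridisation spikes was 0.01, 0.04 and 0.29. Relative to the actin and Gapdh median of the same arrays, the Tfrc controls had 0.98, 1.46 and 1.43, a mean of 1.29 ± 0.27 (SD, 3 array types), so the gap between SubB and SubC closed and that to SubA did not. The part of RNA amount or labelling in the remaining gap was not tested.

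Set beside the other shared controls, the Tfrc controls had the highest ratios held on all 3 array types. Of 66 control probe sets on every array type, 32 lay above the floor on all 6 arrays, 29 of them not for Tfrc. The lowest Tfrc ratio was 0.68. Among the 29 others, 4 were above 0 on every array type, and the highest value that any of them kept on all 3 was 0.38. At least 2-fold higher on some array type were 2 of the 29, both antisense probe sets on SubC, 1 for a hybridisation spike at 1.60 and 1 for Gapdh at 1.13. In the lower direction, sense controls also passed 2-fold. The AFFX-PyruCarbMur 3′ probe set had -2.37 (SubA), -2.56 (SubB) and -1.72 (SubC), and the MA probe set of that control -1.63, -1.35 and -1.09. So Tfrc was not the only sense control to differ at least 2-fold. Over array types the SD of the 29 had a median of 0.22 and ran from 0.09 to 0.99. The highest was that of the antisense spike probe set, and the next highest was 0.44. The SDs of the 3 Tfrc probe sets were all above that median. They were 0.40 (3′), 0.26 (5′) and 0.54 (middle), so the middle one was exceeded by the antisense spike alone.

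**Figure D2:**
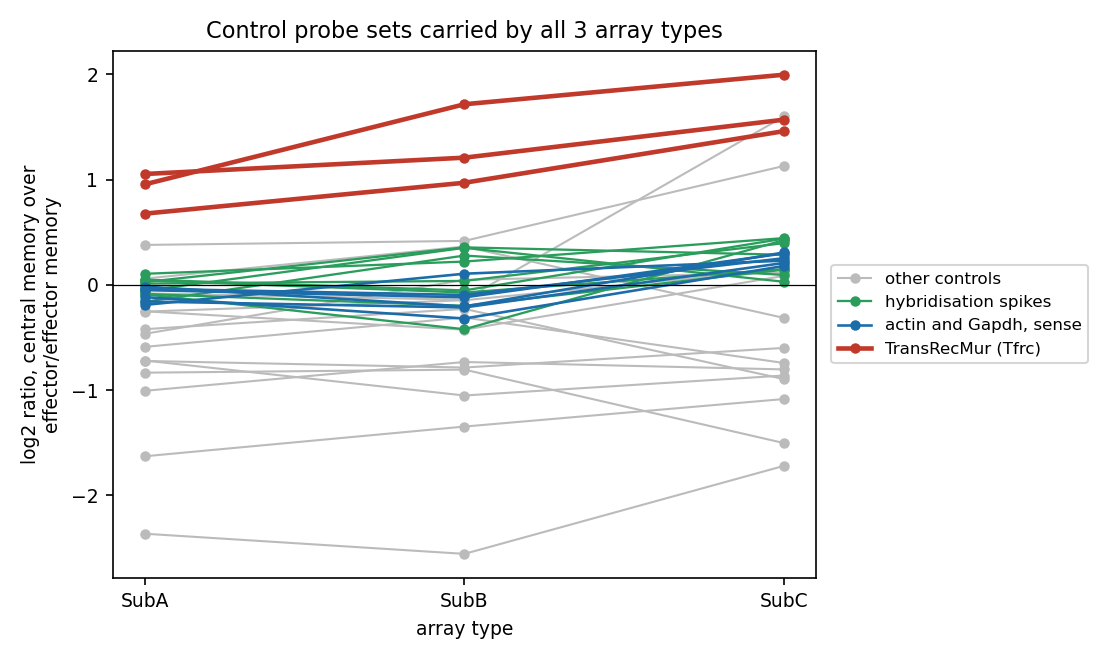
Log2 ratio of CM over E/EM intensity for 32 control probe sets above the floor on all 6 arrays, by array type, with lines joining the readings of a probe set. The 3 Tfrc control probe sets (red) lie between 0.68 and 2.00. The sense actin and Gapdh probe sets (blue) and the sense hybridisation spikes (green) have medians between -0.16 and 0.29. On SubC 2 antisense controls (grey) exceed 1, and other grey controls lie under -1, the lowest at -2.56 on SubB.

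The gene probe sets and the control probe sets agreed in direction but not in size. By array type the gene probe sets had log2 ratios of 0.75 on SubA (mean of 2), 0.29 on SubB and 0.81 on SubC, against 0.89, 1.30 and 1.67 for the controls on the same arrays. The gap was smallest on SubA. On SubB the 3′ control probe set alone had 0.97. By their mean over array types the control probe sets of Tfrc therefore passed a 2-fold rule, though their SubA mean of 0.89 did not. The gene probe sets of Tfrc did not pass it. The ratio of 3′ to 5′ signal depends on the 2 probe sets as well as on how complete the labelled transcripts are. For the Tfrc controls it was 3.96, 4.29 and 5.09 on the CM arrays of SubA, SubB and SubC. On the E/EM arrays it was 5.14, 5.06 and 5.49. It was lower on the CM array of each type, which restates that the 5′ log2 ratio exceeded the 3′ one there. The same ratio lay between 1.06 and 1.17 for actin and between 0.79 and 0.90 for Gapdh on the 6 arrays. The part of transcript completeness in the Tfrc ratios was not tested.

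Slc11a2, which encodes the endosomal iron transporter DMT1, was measured by 2 probe sets of SubA. Probe set 102642_at read 1688.4 in CM and 866.5 in E/EM cells, a log2 ratio of 0.96, the highest among the gene probe sets of the 8 genes. Probe set 104451_at read 156.4 against 143.9, a log2 ratio of 0.12. Both were higher in CM cells, but only the first by a size above the usual SD between probe sets of a gene. The mean was 0.54 ± 0.60 (SD, 2 probe sets), so the size is not settled. The median SD over probe sets was 0.32 among 4094 genes with at least 2 of them measured. It describes how far probe sets differ and does not measure variation between repeated arrays, of which there were none.

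Fth1, the ferritin heavy chain with the ferroxidase site, was read by 5 probe sets on all 3 array types, and they did not share a direction. Probe set 94794_at of SubA, the only one of the 5 without a letter in its identifier that marks a shared or lower-grade design, read 4885.5 in CM and 7373 in E/EM cells, a log2 ratio of -0.59. On SubB, 109819_f_at read 1913 against 3666.8, a log2 ratio of -0.94. On SubC, 168912_f_at read 6909.8 against 13369.5, a log2 ratio of -0.95. These 3 were lower in CM cells, by between 1.51-fold and 1.93-fold. The other two were slightly higher there. Probe set 161913_r_at of SubA read 2362.5 against 2191.6 (log2 ratio 0.11), and 137155_f_at of SubC read 4293 against 3542.7 (log2 ratio 0.28). The mean was -0.42 ± 0.58 (SD, 5 probe sets), smaller than its own spread. Ferritin genes have processed pseudogenes, and the letter f marks a probe set that may read a family of similar sequences, so these values are uncertain for the individual gene.

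The light chain Ftl1 had no value of its own. The probe set annotated to it, 99872_s_at of SubA, is annotated to the pseudogene Ftl1-ps2 as well. It read 5400 in CM and 8432.8 in E/EM cells, a log2 ratio of -0.64. That is close to the -0.59 of the unmarked Fth1 probe set on the same pair of arrays.

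Slc40a1, the iron exporter ferroportin, was read by 1 SubB probe set, 109069_at, at 93.2 in CM and 142.2 in E/EM cells. The log2 ratio was -0.61, and the CM signal was only 1.06 times the floor. The E/EM signal was also under 2 times the SubB floor of 88.12. The exporter was therefore barely measurable in CM cells and weak in E/EM cells, and the size of its ratio is uncertain.

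The sensors Aco1 (IRP1, an aconitase when it holds an iron-sulfur cluster) and Ireb2 (IRP2) showed small ratios. Ireb2 read 292.9 in CM against 235.6 in E/EM cells on SubA, and 526.4 against 429.9 on SubB. The log2 ratios of 0.31 and 0.29 were nearly equal, with a mean of 0.30 ± 0.02 (SD, 2 probe sets), or 1.23-fold. The size is below the median SD between probe sets, 0.32, though these 2 were nearly equal. Another probe set, at 4.9 and 15.9 on SubB, lay under the floor. The Aco1 probe sets went opposite ways. On SubA the gene read 41 against 63.8, a log2 ratio of -0.64 with the CM signal at 1.31 times the floor. The SubC probe set 137501_f_at, which carries the letter f described for Fth1, read 1019.7 against 799.9, a log2 ratio of 0.35. The Aco1 mean of -0.14 ± 0.70 (SD, 2 probe sets) has no settled direction.

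Iscu, the scaffold on which iron-sulfur clusters are built in mitochondria, read 93.8 in CM and 88.5 in E/EM cells on SubA, a log2 ratio of 0.08. Its SubB probe set, at 11.6 and 22.7, lay under the floor. It was the member with the ratio nearest 0.

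By the mean over gene probe sets, 0 of the 7 measured genes passed 2-fold in CM cells in the higher and 0 in the lower direction. Over all named genes the shares were 2.73% higher and 5.61% lower. Of the 17 measured gene probe sets 0 passed 2-fold in either direction, where 3.91% of all probe sets were higher and 5.89% lower by that size. The 4 genes with a positive mean were Tfrc, Slc11a2, Ireb2 and Iscu, and the 3 with a negative mean were Fth1, Aco1 and Slc40a1. The median of the 7 was 0.08, against -0.0025 for all genes. Of the 19 gene probe sets 17 lay above the floor on both arrays. Those of Tfrc and Fth1 were at least 13.0 times the floor in the weaker cells, whereas Slc40a1 and Aco1 had a reading under 2 times it.

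**Figure D3:**
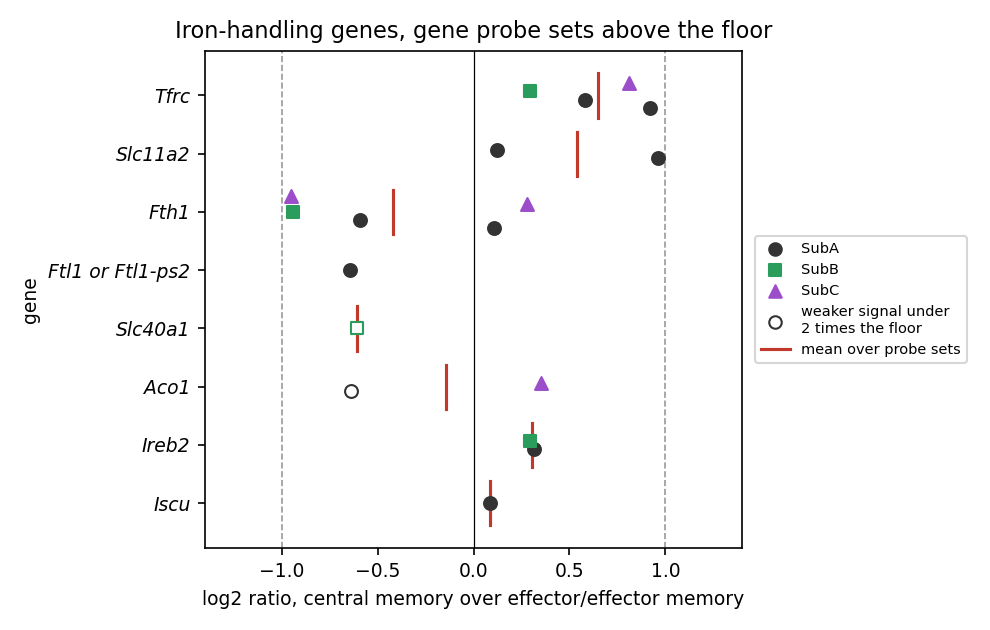
Log2 ratio of CM over E/EM intensity for each gene probe set above the floor, by gene, with the array type as colour and shape, an open symbol for a weaker reading below 2 times the floor, and a red line at the mean over probe sets; dashed lines mark 2-fold. All Tfrc, Slc11a2 and Ireb2 points lie to the right of 0, and those of Fth1 and Aco1 fall on both sides.

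A wider list of 79 iron genes, which includes these 8, placed them among the other genes of the pathway. Of 55 listed genes with a ratio, 3 were at least 2-fold lower in CM cells and 0 at least 2-fold higher. A ratio below 0 was found for 35 and above 0 for 20, and the median was -0.10, against -0.0025 over all 10946 genes, of which 50.3% were below 0. Without the 8 genes, 32 of 48 were below 0 and the median was again -0.10. The 3 genes past 2-fold were Epas1, Trf and Abcg2, each with a CM reading under 2 times the floor, so that 0 genes were left with the floor doubled. Without SubB 1 of them was left, Abcg2, and without SubA the median of the list was -0.0069.

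Tfrc and Slc11a2 were among only 3 genes above 0 in the uptake group of 12 measured genes, whose median was -0.45. The other was Steap3, the endosomal reductase that prepares iron for the transporter, with signals of 530.5 in CM and 360.7 in E/EM cells and a log2 ratio of 0.56. None of these 3 reached 2-fold. Among the 9 genes below 0, the metal transporter Slc39a14 (ZIP14) had -0.73 ± 0.12 (SD, 3 probe sets) and Slc39a8 (ZIP8) -0.63 ± 0.20 (SD, 2 probe sets). Steap4, a reductase related to Steap3, read 473.5 against 888.4, a log2 ratio of -0.91. Steap2 had -0.74 on 1 measured probe set. Transferrin itself, Trf, read 102.2 against 257.5, a log2 ratio of -1.33 with the CM signal at 1.16 times the floor. The second transferrin receptor, Tfr2, had -0.46 ± 0.47 (SD, 2 probe sets), and the sorting nexin Snx3, which recycles the transferrin receptor, had -0.17.

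In the storage group Fth1 had the lowest ratio of 4 measured genes. The iron chaperones Pcbp1 and Pcbp2 had -0.03 ± 0.01 (SD, 2 probe sets) and -0.10, and Ncoa4, which delivers ferritin to lysosomes, had -0.08. These readings were thus close to equal between the kinds of cells. In the export and systemic group only Slc40a1 and Abcg2, a heme and drug exporter, had a ratio among 11 listed genes. Abcg2 read 57.3 against 133.9 on SubA, a log2 ratio of -1.22 with the CM signal at 1.83 times the floor. Its other probe sets were under the floor. Tmprss6, a protease of hepcidin regulation in liver, was above the floor in CM cells alone, at 231.4 against 67.4 on SubB, which makes it at least 2.63-fold higher there.

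Among iron sensors and mRNAs with iron-responsive elements, Ireb2 had the highest ratio of 5 measured genes and Epas1, the hypoxia factor HIF-2 alpha, the lowest. Epas1 read 130.9 in CM against 608.2 in E/EM cells on SubB, a log2 ratio of -2.22, and 38.7 against 60.5 on SubA, a ratio of -0.64. The mean was -1.43 ± 1.11 (SD, 2 probe sets), with the same direction on both array types and very different sizes. Fbxl5, the iron-sensing subunit of the ligase that degrades IRP2, had -0.11 ± 0.35 (SD, 3 probe sets). Cdc42bpa had 0.24.

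Iscu lay near the middle of the iron-sulfur assembly group, which was balanced, with 9 of 18 measured genes below 0, 9 above 0, a median of -0.0014 and 0 genes past 2-fold. Its lowest values were -0.83 for Fdx1, the ferredoxin that supplies electrons, at 1482.4 against 2638, and -0.69 ± 0.32 (SD, 2 probe sets) for Iba57. Its highest were 0.68 ± 1.22 (SD, 2 probe sets) for the chaperone Hspa9, whose probe sets disagreed at -0.18 and 1.54, and 0.31 ± 0.42 (SD, 3 probe sets) for Cisd2. The mitochondrial iron and heme group had a median of -0.07 over 14 genes with 0 past 2-fold. The heme-degrading enzyme Hmox1 read 236.1 against 442.8, a log2 ratio of -0.91, and Abcb8 had -0.38. At the other end Urod, an enzyme of heme synthesis, had 0.57 ± 0.33 (SD, 2 probe sets). Another Urod probe set, above the floor in E/EM cells alone, was at least 1.45-fold lower in CM cells. The biliverdin reductase Blvrb had 0.41 on 1 probe set marked f, and its SubB probe set was at least 2.18-fold higher in CM cells.

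**Figure D4:**
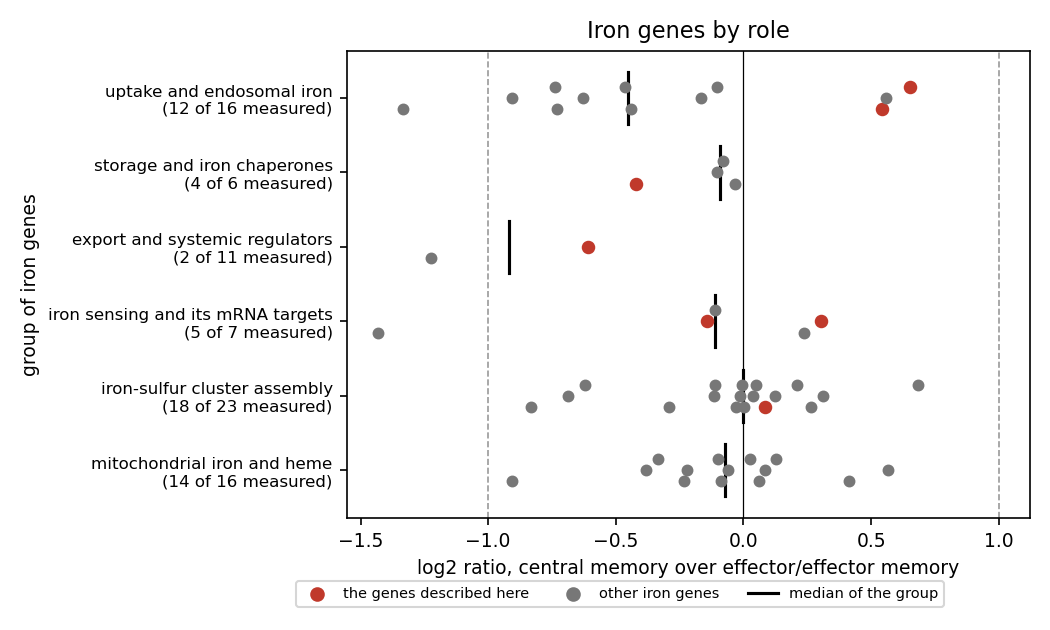
Mean log2 ratio of CM over E/EM intensity for the 55 iron genes with a ratio, by role, with the genes described here in red, other genes in grey, the median of each group as a black line and dashed lines at 2-fold; vertical offsets within a group only separate points. Tfrc and Slc11a2 lie at the right of the uptake group, whose median is -0.45, and the iron-sulfur group is centred on 0.

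All 8 T cell markers had a ratio, with log2 ratios from -0.72 for Cd3g to 1.13 for Cd5, the only 1 past 2-fold, and Cd8a at 5882.7 in CM and 5133.8 in E/EM cells. Erythroid cells and macrophages also carry Tfrc or Slc40a1. Of 8 erythroid markers 4 were measured, with summed SubA signals of 295 in CM and 260.6 in E/EM cells over 4 probe sets, while Slc4a1 read 324.9 and 689 on SubC. Of 8 macrophage and monocyte markers 3 were measured, with sums of 347.5 and 549.3 over 14 probe sets, and Lyz2 and Adgre1 lay under the floor. Cd68 was the only macrophage marker past 2-fold, at -1.16, the direction of Slc40a1, and its part in that ratio was not tested. The 4 measured B cell markers had a median of -0.04. The 10 measured proliferation genes, which accompany Tfrc in dividing cells, had a median of 0.09 and 0 past 2-fold. They ranged from -0.45 for Mcm5 to 0.60 for Ccna2, with Mki67 at 0.04.

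The genes with a mean ratio nearest that of Tfrc, by the difference of means over the 2 kinds of cells among genes with at least 2 probe sets all at least 2 times the floor, were Ncbp1, Mtmr3, Far1, Prr5l and Ndufs1. Their log2 ratios lay between 0.646 and 0.652, and their SDs over probe sets between 0.14 and 0.91. With 2 kinds of cells this likeness is a single shared ratio.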

How the data were processed

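CM and E/EM cells were each profiled on 3 array types, per the labels, with 1 array per kind and type. The deposited tables give a linear intensity per probe set. The authors' scanner software, background handling and scaling are not named in the sources used here. The mean of each array, leaving out the lowest and highest 2%, lay between 500.1 and 500.3, so the values were used as deposited.

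The tables held 12488, 12477 and 11934 probe sets. Probe sets were named through the platform annotation of GEO, and those with several symbols named no gene. The floor was the higher of both arrays' 90th percentile over 15 bacterial poly-A control probe sets. A gene's value was the mean log2 ratio, CM over E/EM, over its probe sets above the floor on both arrays, computed with Python 3.11.15 and pandas 2.3.3. Where 1 array alone exceeded the floor, the fold is a lower bound, its signal over the floor. Control probe sets were kept out of gene values. The calculation was tested on simulated data with planted changes larger than 2-fold, shared by all probe sets of a gene. Smaller changes and probe sets that disagree were not simulated.

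The iron list, the markers, the motifs other than CCAAT and GGGCGG and the alternatives named below were fixed in writing, but all lists were chosen with earlier results of these data known. Genes of the iron list were named where at least 2-fold or as the 2 highest and 2 lowest of a group. They were also named where bounded at 2-fold or more with no ratio. The limit to genes with no ratio was not in the written rule. Abcb10 (at least 2.33-fold lower on 1 probe set) and Ciao1 (at least 2.08-fold higher on 1) had such a bound beside a ratio. Slc39a14, Slc39a8, Steap2, Tfr2, Snx3 and Fbxl5 were named outside the rule. The alternatives were quantile normalization, centring, another floor, the brightest probe set, leaving out marked probe sets, leaving out an array type and a 3-fold rule. Added after the data were seen were ratios relative to the actin and Gapdh controls and Tfrc with its control probe sets.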

Additional observations from a re-analysis of the deposited data

How the results depend on the processing

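Tfrc kept a positive log2 ratio in all 11 alternatives, from 0.29 with the brightest probe set per gene to 1.09 with its control probe sets averaged in. The second of these, added after the data were seen, put 1 of the genes past 2-fold higher, and no other alternative put any past 2-fold. The Tfrc control probe sets stayed between 1.04 and 1.49 in 10 alternatives. Slc11a2, Ireb2 and Iscu stayed above 0, and Fth1 and Slc40a1 below 0, in each alternative that gave a value. Slc40a1 and Iscu each had 1 measured probe set. For these genes another floor, the choice of probe sets or a left-out array type returned the same value or none. Their kept sign in those alternatives is therefore no sign of stability. Aco1, with no settled direction, ranged from -0.64 to 0.35. Ftl1 had no value in any, and Slc11a2 and Iscu had none without SubA, nor Slc40a1 without SubB or with the floor doubled.

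Of the iron list, 0 genes were at least 2-fold lower with the floor doubled, 0 with a 3-fold rule, and 1 without SubB (Abcg2). With the floor halved 1 was at least 2-fold higher (Tmprss6, 1.78), as was 1 without SubA (Hspa9, 1.54). The list's median ranged from -0.11 to -0.0069. Over all genes the lower count was 948 with the floor halved, 385 with it doubled, 403 without SubB and 169 with a 3-fold rule, and the higher count was 480 with the floor halved and 61 with a 3-fold rule, against 614 and 299.

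No paired analysis was possible because each kind of cell had 1 array per type. On SubC only 47.1% and 47.3% of probe sets lay above the floor, so weak genes were measured less well there. Precision is limited by the number of arrays.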
